A study of Mus musculus with 5 samples.

Results

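Alpl, Runx2, Spp1 and Dmp1, genes that mark steps of bone formation, were followed through the libraries of mouse mesenchymal stem cells with and without TSG-6. They were taken by symbol, and all 4 had a row among the 12621 genes of the deposited table. TSG-6 is a secreted hyaluronan-binding protein encoded by Tnfaip6, and mesenchymal stem cells are adherent stromal progenitors able to form bone, fat and cartilage. Poly(A) RNA was sequenced from 2 wild-type (WT) and 3 knockout (KO) libraries, all carrying the strain label Balb/c (C.129S6). The table's columns are named WT C1, WT SE, KO C1, KO C2 and KO SE, and the labels do not say what C and SE stand for. The labels give no age, passage, tissue of origin, culture medium, allele or number of animals, and the submitters' design text counts 2 biological replicates for each genotype, fewer than the 3 KO columns. Because nothing states that libraries came from separate animals or cultures, p-values measure only the spread between these libraries.

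Osteoblasts arise from mesenchymal progenitors under the transcription factor RUNX2, which binds DNA with its partner CBFB and acts before a second factor, osterix (Sp7). Maturing osteoblasts lay down type I collagen and carry tissue-nonspecific alkaline phosphatase (Alpl) on their surface, an enzyme that removes pyrophosphate, an inhibitor of mineral growth. Osteopontin (Spp1) and dentin matrix protein (Dmp1) are acidic phosphoproteins of one gene family (SIBLING). Osteopontin is made by many cell types, while Dmp1 is known as a gene of osteocytes, the cells that osteoblasts become inside bone.

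The promoters of the 4 genes are shown first, and a link between their letters and the changes of the transcripts was not tested. The bases before the RefSeq start nearest the annotated gene start are given 5′ to 3′ on the gene's strand (GRCm38.p6), and capitals mark matches on either strand to TGTGGT (the core letters bound by RUNX factors), GGGCGG (a GC box) or TATAAA. Bases past the annotated gene start were left out, except for Runx2. Its RefSeq start lay 170 bases inside the annotated gene. Only 30 bases around the Runx2 match are printed, and they lie after the annotated gene start, in bases counted as exon. The windows were chr4:137796385-137796634 (minus strand), chr17:44814690-44814719 (minus strand), chr5:104434861-104435110 (plus strand) and chr5:104202367-104202612 (plus strand).
Alpl: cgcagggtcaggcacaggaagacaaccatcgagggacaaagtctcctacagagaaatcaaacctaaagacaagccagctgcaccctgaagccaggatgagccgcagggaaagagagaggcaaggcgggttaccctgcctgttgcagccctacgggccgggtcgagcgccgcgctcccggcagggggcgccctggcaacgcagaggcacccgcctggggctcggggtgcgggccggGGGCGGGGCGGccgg
Runx2: gtgaggtcacaaACCACAtgattctgtctc
Spp1: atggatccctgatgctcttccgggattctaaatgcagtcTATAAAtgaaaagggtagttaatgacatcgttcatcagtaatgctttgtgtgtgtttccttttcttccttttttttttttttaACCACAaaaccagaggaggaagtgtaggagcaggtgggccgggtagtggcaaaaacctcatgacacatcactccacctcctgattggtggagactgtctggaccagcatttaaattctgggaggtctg
Dmp1: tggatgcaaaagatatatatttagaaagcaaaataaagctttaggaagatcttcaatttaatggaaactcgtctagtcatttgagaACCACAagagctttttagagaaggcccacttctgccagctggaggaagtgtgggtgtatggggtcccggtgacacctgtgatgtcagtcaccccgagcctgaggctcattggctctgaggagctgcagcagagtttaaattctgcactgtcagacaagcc

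Within 250 bases before these starts, Spp1, Dmp1 and Runx2 each held 1 match to TGTGGT, read as ACCACA on the gene's strand. The match began 128 bases before the start in Spp1, 164 in Dmp1 and 80 in Runx2. The Alpl window held no such letters and instead 2 GC box matches that overlap by 1 base, with a GC content of 68.4% against a median of 52.4% over all promoters. The Spp1 window also held TATAAA, beginning 211 bases before the start. Over all 32851 RefSeq promoter windows of this length, 14.0% held TGTGGT, 32.7% GGGCGG and 12.4% TATAAA. Alpl, Spp1 and Dmp1 each have 2 start sites in the RefSeq table, and values per gene cannot show which one was used.

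The 5 libraries held between 13605555 and 26658725 reads assigned to genes. All levels below are normalised counts of the CPM kind, meaning reads divided by an adjusted library size. Tnfaip6, the targeted gene, stood at 6.04 and 3.21 in WT C1 and SE and at 1.65, 2.38 and 1.36 in KO C1, C2 and SE. No KO library reached a WT library, but the difference did not pass the threshold (log2 fold change -1.13, limma adjusted p = 0.0578). Of 12484 genes tested, 17.2% were called higher and 17.1% lower in the KO at an adjusted p under 0.05 (limma with Benjamini-Hochberg adjustment). Every KO library lay above every WT library for 28.0% of genes and below for 30.7%. Of the 4 genes, 1 was called higher (Alpl), 1 lower (Dmp1) and 2 neither way (Runx2 and Spp1), in a data set where such calls are common.

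**Figure D1:**
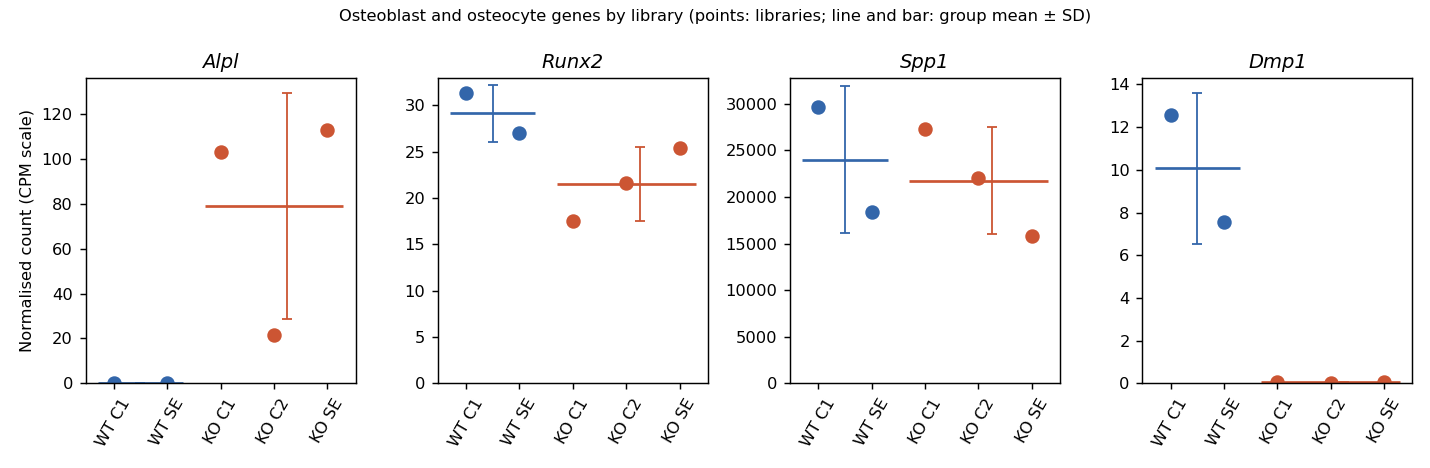
Normalised counts of the 4 genes (y axes, CPM scale, each from 0) in the 2 WT and 3 KO libraries (x axes). Points are libraries, and lines with bars are group means ± SD. Alpl is near 0 in both WT libraries, Dmp1 is near 0 in all 3 KO libraries, Runx2 is lower in every KO library, and the Spp1 groups overlap.

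Runx2, the transcription factor at the head of the osteoblast program (ENSMUSG00000039153, chromosome 17, 44495987 to 44814797, minus strand, GRCm38), was present in all libraries. Its normalised counts were 31.3 in WT C1 and 27.0 in WT SE, and 17.5 in KO C1, 21.6 in KO C2 and 25.4 in KO SE, from 355 to 772 reads per library. Every KO library lay below every WT library, with KO SE close under WT SE. The group means were 29.1 ± 3.04 (SD, n = 2) and 21.5 ± 3.95 (SD, n = 3), and the log2 fold change was -0.44 with an SE of 0.28. The test was not passed (limma adjusted p = 0.262), and the 95% interval ran from -1.10 to 0.22 on the log2 scale, or from 0.466 to 1.17 as a ratio. Compared within the column suffixes, the log2 difference was -0.67 among the C libraries and -0.08 between the SE libraries. Runx2 overlaps Runx2os1 and part of Supt3, both on the other strand, and the sources do not give the strand setting of the counting, so its values are uncertain to that extent. Runx2os1 stayed at or under 2.11 in every library and Supt3 lay between 16.3 and 26.3, and neither was called (adjusted p = 0.417 and 0.557).

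Alpl (ENSMUSG00000028766, chromosome 4, 137741733 to 137796384, minus strand) went from almost no reads to clear expression. WT C1 had a normalised count of 0.162, from 4 reads, and WT SE had none. KO C1 stood at 103 (2190 reads), KO C2 at 21.4 (565 reads) and KO SE at 113 (1576 reads). The groups did not overlap, and the highest KO library, SE, stood 5.28 times above the lowest, C2. The KO mean was 79.1 ± 50.2 (SD, n = 3), and the log2 fold change was 6.79 (SE 0.73, limma adjusted p = 9.64e-04). The read rate was 772 times higher in the KO, with an exact 95% counting interval from 301 to 2836 that covers counting error only. The log2 fold change was 7.56 without KO C2. The ratio of group means was 976, against 488 without WT SE, and without WT C1 the WT group held no read. Without both SE libraries the log2 fold change was 6.17 and the call was lost (adjusted p = 0.0531). Alpl was among the genes that pass the filter on low values only through the KO.

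Spp1 (ENSMUSG00000029304, chromosome 5, 104435118 to 104441050, plus strand) had the highest normalised count of all genes in each of the 5 libraries, and also the highest per kilobase of exon. Its values were 29607 in WT C1, 18435 in WT SE, 27315 in KO C1, 22093 in KO C2 and 15818 in KO SE. The groups overlapped, and in both genotypes the SE library was the lowest. The log2 fold change was -0.14 (SE 0.61, limma adjusted p = 0.886). The 95% interval from -1.61 to 1.33 on the log2 scale, or a ratio from 0.328 to 2.51, includes changes of 2-fold in either direction. The sign of the difference turned when single libraries were left out, to 0.20 without WT C1 and 0.07 without KO SE. Within the suffixes the log2 differences were -0.27 (C) and -0.22 (SE).

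Dmp1 (ENSMUSG00000029307, chromosome 5, 104202613 to 104214102, plus strand) starts 232.5 kb before Spp1 on the same strand and moved differently. Normalised counts were 12.6 in WT C1 and 7.56 in WT SE, from 310 and 146 reads. KO C1 and KO SE had 1 read each and KO C2 had none. All KO libraries were far below both WT libraries, with a log2 fold change of -4.25 (SE 0.31, limma adjusted p = 2.30e-04). The WT read rate was 319.6 times that of the KO, with an exact 95% counting interval from 88.0 to 2647. The ratio of group means was 254 and lay between 169.6 (without KO C2) and 428 (without KO SE), and the call held in all 18 alternative settings. Dmp1 passed the filter on low values only through the WT.

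Per kilobase of annotated exon, the WT means were 14576 ± 4793 for Spp1, 3.64 ± 1.28 for Dmp1, 3.30 ± 0.344 for Runx2 and 0.0201 ± 0.0284 for Alpl (level, CPM scale per kb, SD, n = 2). Dmp1 and Runx2 were next to each other in this order and did not differ beyond their spread. In the KO the order was Spp1 at 13193 ± 3493, Alpl at 19.6 ± 12.5, Runx2 at 2.44 ± 0.447 and Dmp1 at 0.0143 ± 0.0132 (level, CPM scale per kb, SD, n = 3).

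**Figure D2:**
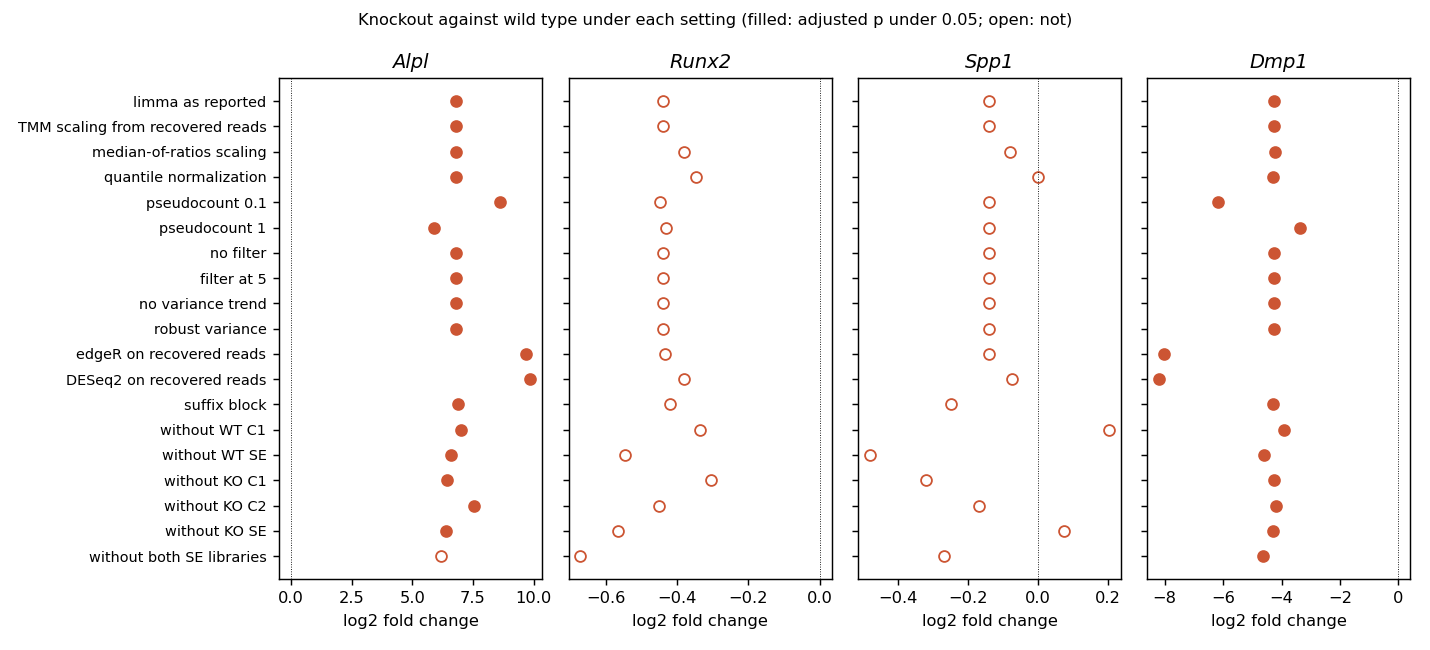
Log2 fold change of KO against WT (x axes) for the 4 genes under limma as reported and 18 alternative settings (y axis), with filled points where the adjusted p was under 0.05 and open points where it was not. Dmp1 is filled throughout, Alpl is open only without both SE libraries, Runx2 is negative and open throughout, and Spp1 lies from -0.48 to 0.20.

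The genes around the members showed whether a change stood alone on its stretch of chromosome. Within 500 kb of the Spp1 start, 9 other genes were tested, of which 2 were called higher and 4 lower, where 17.2% and 17.1% of all genes were. The 4 lower genes included Dmp1, itself a member, and Gm42793, so they do not describe independent neighbours. Around Dmp1, in a window that mostly overlaps, 2 of 9 tested genes were called higher and 2 lower. Neither of the 2 genes around Runx2 was called. Of the genes around Spp1, Dmp1 had the lowest log2 fold change. Next came Gm42793, a transcript annotated inside Spp1, which fell 5.14-fold (adjusted p = 0.00448). Zfp951, a zinc finger gene, and D930016D06Rik fell 2.71-fold and 2.57-fold (adjusted p = 0.0307 and 0.0302). Without WT C1 the call of Gm42793 was lost (adjusted p = 0.0617). Those of Zfp951 and D930016D06Rik were lost without WT C1, WT SE, KO C1 or KO C2 (adjusted p from 0.0660 to 0.156). Sparcl1, a matricellular glycoprotein of the SPARC family near Dmp1, rose 6.36-fold (adjusted p = 0.0386), or 3.26-fold without KO C2. Its KO values were 6.44, 24.3 and 6.16 against 2.31 and 1.55 in the WT. Pkd2, which encodes the polycystin-2 cation channel and starts 24.3 kb after Spp1, rose 2.76-fold (adjusted p = 0.0331). Both calls were lost without WT C1 (adjusted p = 0.174 and 0.235) and without WT SE (adjusted p = 0.241 and 0.0788), and that of Pkd2 without KO C2 (adjusted p = 0.0679). Of the 7 tested genes within 500 kb of the Alpl start, 1 was called. This was Ece1, endothelin-converting enzyme, which rose 6.01-fold (adjusted p = 0.00671), against a median log2 fold change of -0.53 for the 7. Without WT C1 the call of Ece1 was lost (adjusted p = 0.0832), and without WT SE it was 9.69-fold higher. The other SIBLING genes of the lists, Ibsp, Mepe and Dspp, had no row in the table and were not analysed here.

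**Figure D3:**
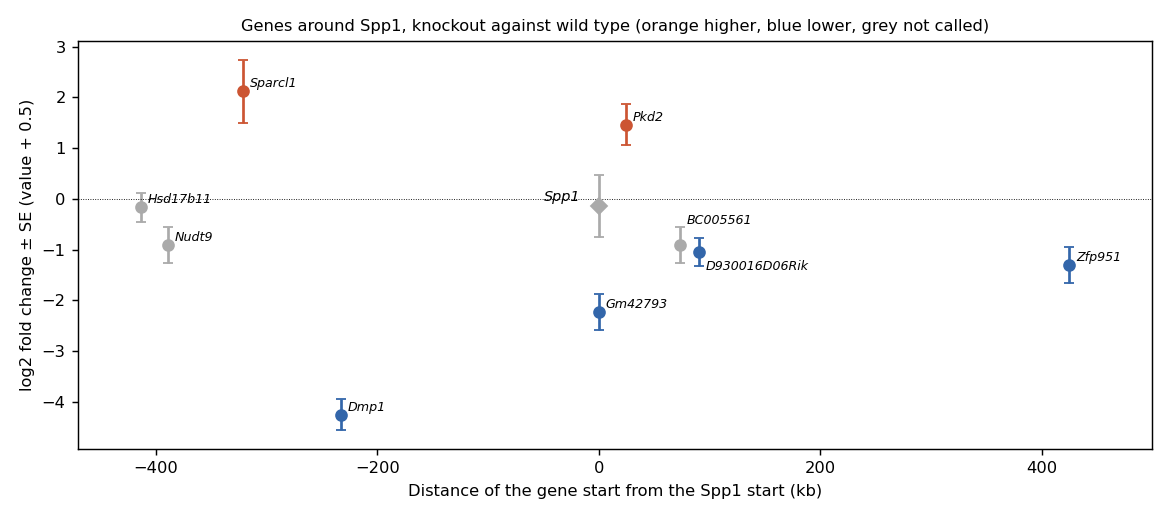
Log2 fold change ± SE of KO against WT (y axis) for the tested genes within 500 kb of the Spp1 start (x axis, kb). Colours give the call, and Dmp1 at -4.25 and Spp1 at -0.14 lie 232.5 kb apart with Sparcl1 and Pkd2 above 0.

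The other genes of bone formation were described by 6 lists fixed by role, without the 4 genes themselves. Of 106 listed genes, 84 had a row and 83 were tested. Of these, 25 were called higher (30.1%) and 18 lower (21.7%), against 17.2% and 17.1% of all genes tested, and the median log2 fold change was 0.02 against -0.09 over all genes. Of the 83, 12 passed the filter through 1 group alone, against 1277 of the 12484 genes tested. Called genes of this kind were Dlx5, Itga9, Itgb3, Nog, Postn, Runx3, Smpd3 and Sp7 (higher) and Bmp2 and Phex (lower). With the WT group reduced to 1 library, fewer of the 83 were called in either direction, and the same held over all genes.

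Among transcription factors and partners of RUNX2, 5 of 23 tested were higher (21.7%) and 6 lower (26.1%), against 17.2% and 17.1% of all genes. Sp7, the osterix factor that acts after RUNX2, had no read in either WT library and normalised counts of 1.69, 1.36 and 1.58 in KO C1, C2 and SE, and was at least 11.1-fold higher (limma adjusted p = 0.00144) against a floor of 3 reads per library. Dlx5, a homeobox factor of the bone lineage, also had no WT read, stood at 4.98, 2.35 and 4.94 in the KO and was at least 29.5-fold higher (adjusted p = 0.00139). Runx3, a relative of Runx2, was without WT reads and at least 17.3-fold higher (adjusted p = 0.00394), and Runx1 rose from 35.4 ± 2.90 to 85.9 ± 13.2 (adjusted p = 0.00820). The WT libraries thus held reads of Runx2 and Runx1 but none of Runx3, and the KO libraries held all 3. Cbfb, the shared partner of these factors, fell from 184 ± 57.5 to 89.9 ± 8.17 (adjusted p = 0.0271). Wwtr1, the co-activator TAZ, fell 2.82-fold (adjusted p = 0.00777), while Smurf1 and Fosl2 had the largest p-values of the list (adjusted p = 0.888 and 0.964). Without WT C1 the calls of Runx3, Runx1, Cbfb and Wwtr1 were lost (adjusted p from 0.0549 to 0.139). Without WT SE those of Runx3, Runx1 and Wwtr1 were lost (adjusted p from 0.0566 to 0.0850), and that of Cbfb was lost without KO C1 and without KO C2 (adjusted p = 0.0561 and 0.103).

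Matrix proteins of bone leaned upward, with 7 higher (50%) and 1 lower (7.1%) of 14 tested, against 17.2% and 17.1% of all genes. The median log2 fold change of the list was 1.49. Postn, the adhesive matrix protein periostin, had no WT read and was at least 383-fold higher in the KO (adjusted p = 3.99e-04), or at least 247-fold without KO SE. Serpinf1, pigment epithelium-derived factor, rose from 131 ± 27.7 to 964 ± 141 (adjusted p = 4.66e-04), and Bgn, the proteoglycan biglycan, rose 4.55-fold (adjusted p = 0.00173). Col1a2, a chain of type I collagen, stood at 40.2 and 141 in WT C1 and SE and at 2074, 1869 and 9052 in KO C1, C2 and SE, so that the SE library was highest in both genotypes (adjusted p = 0.00355). Its 47.8-fold difference was 108-fold without WT SE and 21.8-fold without KO SE. Sparc, osteonectin, was high throughout at 3085 ± 814 and 3046 ± 770 and not called (adjusted p = 0.970), nor was Fn1 (adjusted p = 0.990). The calls of Col1a2 without WT C1 and of Bgn without WT SE were lost (adjusted p = 0.0728 and 0.0512). The osteocalcin genes Bglap and Bglap2 had no row and were not analysed here.

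The list on mineral and phosphate handling leaned downward, with 2 higher (20%) and 4 lower (40%) of 10 tested, against 17.2% and 17.1% of all genes. Its median log2 fold change was -0.74. The list held genes for phosphate and pyrophosphate, the substrate of the Alpl enzyme, but also annexins and enzymes of other kinds. Ank, a membrane protein needed for the release of pyrophosphate, stood at 462 and 584 in WT C1 and SE and at 77.7, 97.1 and 107 in KO C1, C2 and SE. It fell 5.57-fold (limma adjusted p = 6.59e-04) and kept its call in every setting in which it was tested. Fam20c, the kinase that phosphorylates secreted proteins such as osteopontin and DMP1, fell from 136 ± 2.27 to 42.6 ± 9.85 (adjusted p = 0.00365). Both sodium-phosphate carriers of the list, Slc20a1 and Slc20a2, fell, by 2.51-fold and 2.15-fold (adjusted p = 0.0369 and 0.0156). Enpp1, the ectoenzyme that makes pyrophosphate, stood at 112 ± 15.5 and 166 ± 3.84 and was not called (adjusted p = 0.0753). It was called with the column suffix as a block (limma adjusted p = 0.00540) and by DESeq2 (adjusted p = 0.0453). Calls were common with the suffix block, at 3530 genes higher and 4038 lower over all genes. Smpd3, a sphingomyelinase, rose from 4 WT reads to 257 KO reads (adjusted p = 0.0114), or 57.7-fold by group means, 96.6-fold without WT C1 and 29.9-fold without KO SE. The annexin gene Anxa6 rose 2.36-fold (adjusted p = 0.0144). Anxa2 and Anxa5 were abundant and not called (adjusted p = 0.400 and 0.641), though Anxa2 was called lower with the suffix block (adjusted p = 0.0159). Without WT SE the calls of Fam20c, both Slc20a genes, Smpd3 and Anxa6 were lost (adjusted p from 0.0515 to 0.235), and without WT C1 those of Fam20c, Slc20a1, Smpd3 and Anxa6 (adjusted p from 0.0537 to 0.152). Slc20a2 also lost its call without KO C1 and KO C2, and Slc20a1 and Anxa6 without KO C2 (adjusted p from 0.0553 to 0.0708).

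Among genes known from osteocytes, 2 were higher (25%) and 3 lower (37.5%) of 8 tested, against 17.2% and 17.1% of all genes. Phex, an endopeptidase that like Dmp1 bears on phosphate balance, fell from 2.02 ± 0.00454 to 0.217 ± 0.123, from 89 WT reads to 12 KO reads (adjusted p = 0.00303). Pdpn, podoplanin, an early osteocyte marker, fell 3.55-fold (adjusted p = 0.0143), and Gja1, connexin 43, the gap junction protein that links osteocytes, fell 2.14-fold (adjusted p = 0.0109). Irx5, a homeobox factor, rose 1.99-fold (adjusted p = 0.0205), and Tnfrsf11b, the osteoclast-blocking decoy receptor osteoprotegerin, rose 2.17-fold (adjusted p = 0.0262). Capg and Dstn, which bind actin, were not called (adjusted p = 0.423 and 0.180). Both were called with the suffix block (limma adjusted p = 0.0157 and 0.0164), where 3530 of all genes were called higher and 4038 lower. The calls of Pdpn, Irx5 and Tnfrsf11b were lost without WT C1 and those of Pdpn, Gja1, Irx5 and Tnfrsf11b without WT SE (adjusted p from 0.0756 to 0.163). Irx5 and Tnfrsf11b also lost theirs without KO C1, and Irx5 and Gja1 without KO C2 (adjusted p from 0.0548 to 0.0787). Sost, Mepe and Fgf23, defining genes of mature osteocytes, had no row in the table.

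Of 21 tested signals and receptors that drive or restrain osteoblast formation, 6 were higher (28.6%) and 3 lower (14.3%). Over all genes the shares were 17.2% and 17.1%. Bmp4, a bone morphogenetic protein, rose from 3.49 ± 0.185 to 69.4 ± 27.8 (limma adjusted p = 7.18e-04), whereas Bmp2 fell from 8281 WT reads to 6 KO reads (adjusted p = 4.34e-05). The BMP antagonist Grem1 fell from 354 ± 68.1 to 14.9 ± 10.9 (adjusted p = 0.00110), whereas the antagonist Nog, without a WT read, was at least 35.2-fold higher (adjusted p = 0.00260). Sfrp1, a secreted Wnt inhibitor, rose 20.1-fold (adjusted p = 1.50e-04) and Fgfr2, a fibroblast growth factor receptor, 16.3-fold (adjusted p = 0.00105). Tgfb1 and Lrp5 were not called (adjusted p = 0.988 and 0.984). Leaving out WT C1 or WT SE ended the call of Nog (adjusted p = 0.0521 and 0.0532), and Grem1 was 41.0-fold lower without KO C2. Nog and Grem1 were taken for their opposite signs after their values were seen.

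Of the 7 tested osteopontin receptors, 3 were higher (42.9%) and 1 lower (14.3%), against 17.2% and 17.1% of all genes, while Spp1 itself was not called. Cd44, the hyaluronan receptor that also binds osteopontin, fell 9.89-fold (adjusted p = 2.54e-04). The integrin genes Itgb5, Itga9 and Itgb3 rose. Itgb5 went from 189 ± 64.2 to 1005 ± 121 (adjusted p = 0.00141), Itga9 from 0.560 ± 0.161 to 13.6 ± 7.64 (adjusted p = 0.00248) and Itgb3 from 0.554 ± 0.0956 to 6.25 ± 3.38 (adjusted p = 0.00753). Itgb1 and Itgav, which pair with these chains or with others, were at 1191 ± 204 and 1193 ± 210 and at 75.5 ± 38.3 and 103 ± 93.3 (WT and KO, adjusted p = 0.998 and 0.887). Without WT C1 the calls of Itga9 and Itgb3 were lost (adjusted p = 0.0571 and 0.0914), and without WT SE that of Itgb3 (adjusted p = 0.0820).

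**Figure D4:**
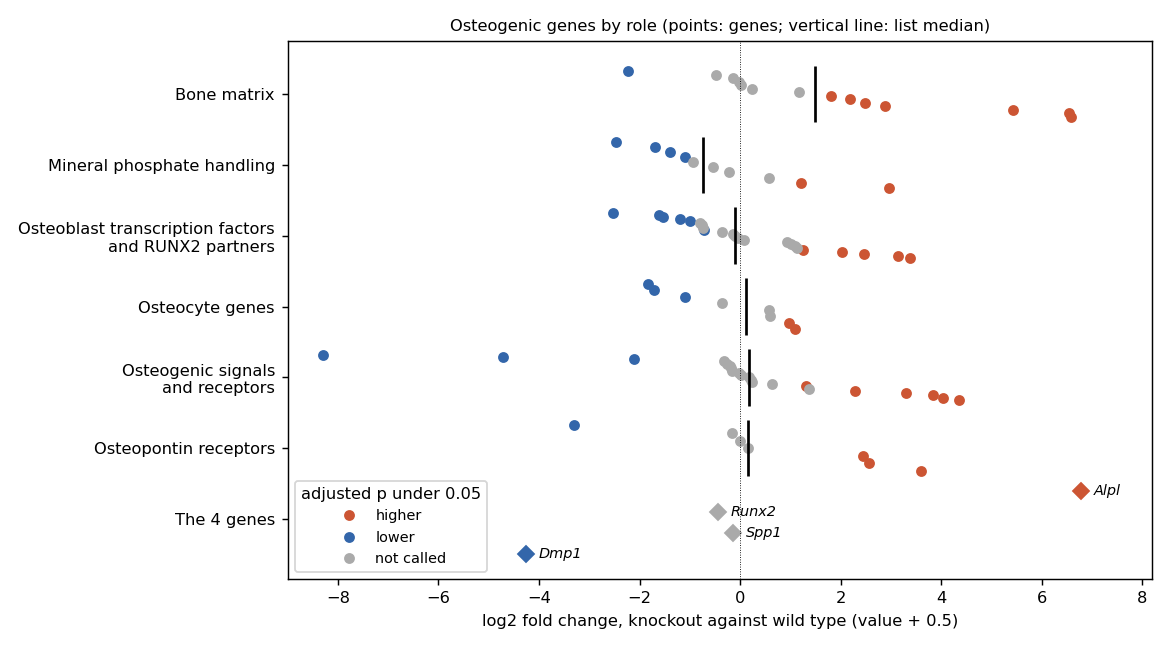
Log2 fold change of KO against WT (x axis, on value + 0.5) for the tested genes of each osteogenic list (rows) and the 4 genes (diamonds), coloured by call, with vertical lines at list medians. Bone matrix has its median at 1.49, phosphate handling at -0.74 and the other lists between -0.10 and 0.18.

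KO C2, the library with the lowest Alpl of the knockout, was also the lowest for most osteogenic genes called higher, a pattern noticed in these values. Of those 25 genes, 19 (76.0%) had their lowest KO value in C2 and 16 (64.0%) their highest in SE. Over all 2150 genes called higher, C2 was the lowest for 25.3% and SE the highest for 34.7%. Relative to the mean of the KO libraries on the log2 scale, the median of the 25 genes was -0.03 in C1, -0.46 in C2 and 0.55 in SE. Adipocyte markers ran the other way, with 6 of 7 highest in C2, where 38.3% of all genes called higher had their highest value, and medians of -0.30, 0.76 and -0.48. Adipoq had the widest difference of these markers, at 75.0 in C1, 741 in C2 and 90.4 in SE. Cebpa was the marker not highest in C2, at 45.8, 63.7 and 98.5 in C1, C2 and SE. With 1 library each, these differences within the knockout have no replicate check.

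**Figure D5:**
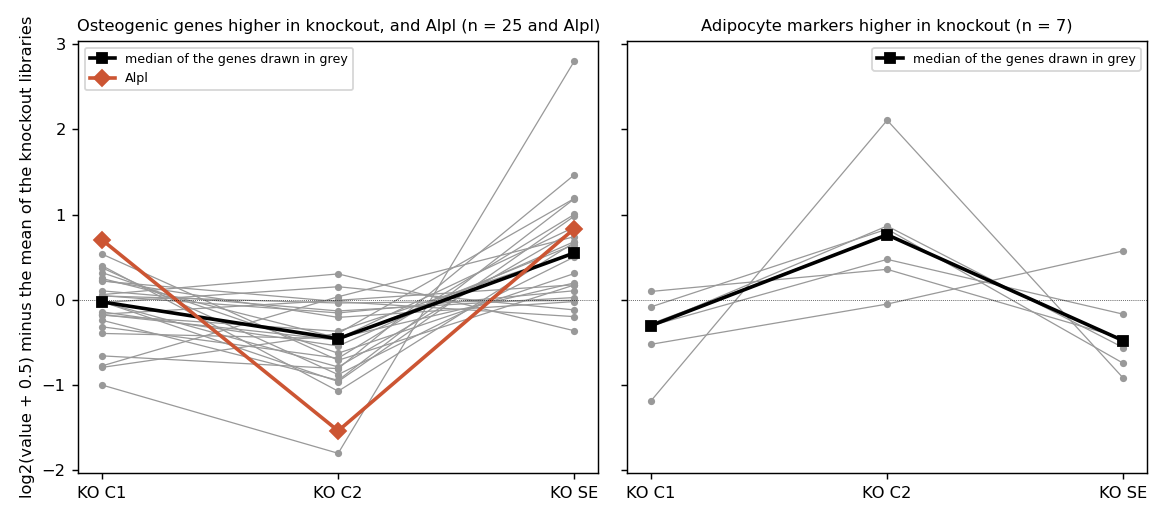
Log2(value + 0.5) minus its mean over the KO libraries (y axis) in KO C1, C2 and SE (x axis) for 25 osteogenic genes called higher with Alpl (left) and 7 adipocyte markers (right). Thin lines join the values of a gene and have no order in time, the thick black line is their median, the orange line is Alpl, and C2 is low on the left and high on the right.

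Markers of other cell types moved with the same contrast, in which 17.2% of all genes were called higher and 17.1% lower. All 7 adipocyte markers in the table rose, and their summed level was 51.1 to 79.2 in the WT and 4387 to 10581 in the KO. Of 6 chondrocyte markers, Col2a1, Col10a1 and Comp rose and Sox9, Sox5 and Hapln1 fell, with sums of 179 to 249 and 31.5 to 530. Col2a1, the chain of type II collagen, had no WT read and stood at 69.5, 2.84 and 415 in KO C1, C2 and SE. Smooth muscle markers rose in 4 of 5 cases, with sums of 161 to 204 and 3180 to 6661. Of the 12 macrophage and osteoclast markers, 5 had a row and 4 were tested, with list sums of 6.01 to 10.1 in the WT and 174 to 272 in the KO. Lyz2, Ctsk and Csf1r rose, and Cd68 was not called (limma adjusted p = 0.686). Mmp9, which was not tested, went the other way, from 49 WT reads to 3 KO reads. Ptprc, Adgre1, Itgam, Tyrobp and Acp5, which define these cells, had no row, nor had any of 5 endothelial markers. Of 9 epithelial and mesothelial markers, Msln and Krt18 had a row and both fell, with sums of 284 to 348 in the WT and 0.0717 to 0.189 in the KO. Msln, the mesothelial surface protein mesothelin, went from 13490 WT reads to 10 KO reads (adjusted p = 4.34e-05), and Krt18, a keratin of simple epithelia, from 221 reads to none (adjusted p = 0.00125). Without WT C1 the calls of Col2a1, Col10a1, Sox9, Cnn1, Csf1r and Ly6a were lost (adjusted p from 0.0506 to 0.204), without WT SE those of Col2a1, Col10a1 and Sox9 (adjusted p from 0.0617 to 0.202), and without KO C1 that of Col2a1 (adjusted p = 0.0608). The part of these cells in the values of Alpl, Spp1 or the lists was not tested. Of 10 markers of mesenchymal stem cells, 8 had a row, of which Cxcl12 rose and Nt5e, Alcam and Ly6a fell, while Thy1 and Lepr had no row. In bulk libraries, fewer cells of a type and less RNA per cell cannot be told apart.

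The genes nearest in pattern were found by the root mean square difference of centred log2 values over the 5 libraries, among 10204 genes (10205 for Dmp1) with a mean of at least 5. For Alpl these were Postn (0.457) and Smoc1 (0.551), a secreted calcium-binding matricellular protein that stood at 0.365 and 0.0518 in the WT and at 55.7, 26.3 and 64.9 in the KO. Dmp1 was nearest to Cda, cytidine deaminase (0.153), and Tnfsf9, a TNF-family ligand (0.169). Runx2 was nearest to the chromatin remodelling genes Rsf1 (0.0390) and Bptf (0.0549). Spp1 was nearest to Polr2d, a subunit of RNA polymerase II (0.0183), and Pop7, a subunit of ribonuclease P (0.0223). Because these genes were picked for matching the members over the same libraries, their own calls follow from the choice and are not given.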

How the data were processed

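Per the labels' protocols, stranded poly(A) libraries gave single-end 75-bp NextSeq reads. The submitters' processing notes name featureCounts 1.5.2, edgeR and STAR 2.5 without a role. Build, annotation and strand setting are not given in the sources used here. The deposited values are a signal, gene counts divided by an adjusted library size. Whole reads were recovered for 100% of values within 0.02 of a read, and the sizes equalled TMM-scaled ones to rounding. Columns were used as unnumbered libraries of the group they name. Limma 3.58.1 (trended eBayes) was run on log2(value + 0.5) for genes at 1 or more in at least 2 libraries. The model held genotype alone, with 3 residual degrees of freedom and Benjamini-Hochberg adjustment over 12484 genes. Folds are ratios of group means. Log2 fold changes understate changes of low genes. Where a group had no read, the bound used 3 reads per library, a mean of 0.138 in the WT and 0.157 in the KO. Ensembl identifiers gave coordinates and exon lengths from GENCODE M21 (GRCm38) for 12607 genes, and promoters are from RefSeq. Alternatives included edgeR 4.0.16 and DESeq2 1.42.0 on recovered reads. Software was Python 3.11.15 and R 4.3.3, and the fits were checked on simulated counts. Members, lists and tests were chosen with earlier results of these data known. Named genes were the 4 members, in each list the 4 with the smallest and 2 with the largest p-value, the nearest patterns and called neighbours, and Runx1, Cbfb, Slc20a1, Slc20a2, Enpp1, Tnfrsf11b, Grem1, Nog and Col1a1 were added after their values were seen.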

Additional observations from a re-analysis of the deposited data

How the results depend on the processing

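Dmp1 was called and Runx2 and Spp1 were not in all 18 alternative settings (rescaling by TMM, median of ratios or quantiles, pseudocounts of 0.1 and 1, no filter or a filter at 5, other variance models, edgeR, DESeq2, a block for the column suffix, each library left out and both SE libraries left out). The adjusted p ranged up to 0.0199 for Dmp1, from 0.121 to 0.561 for Runx2 and from 0.584 to 1 for Spp1. Alpl was called in 17, and without both SE libraries it had a log2 fold change of 6.17 and an adjusted p of 0.0531. The log2 fold change of Spp1 ranged from -0.48 to 0.20 when single libraries were left out and was 0 after quantile normalization, where its rank is the highest in each library. Leaving out libraries was done over the same genes, and where 1 WT library remained it was assumed to vary like the others. Over all genes, the calls higher and lower numbered 2150 and 2129 as reported, 3530 and 4038 with the suffix block, 1418 and 1404 without both SE libraries, and from 846 to 2409 and from 764 to 2629 without single libraries. The osteogenic counts of 25 and 18 ranged from 9 to 27 and from 7 to 19 without single libraries and lay within 1.5 times otherwise. With the suffix block, 35 osteogenic genes were higher and 23 lower. No paired analysis was possible because the columns carry none of the replicate numbers in the sample titles, and the suffix block groups C and SE columns, which the labels do not describe as pairs. Counts of 0 to 4 reads for Alpl in the WT and Dmp1 in the KO make the size of both changes imprecise, and the counting intervals given do not cover the spread between libraries.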

Other observations

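Gm42793, an annotated transcript on the same strand that lies within Spp1 (chromosome 5, 104435121 to 104436372), stood at 17.7 and 14.0 in WT C1 and SE and at 2.12, 2.99 and 4.16 in KO C1, C2 and SE. It was called lower (5.14-fold, limma adjusted p = 0.00448), while Spp1 itself was not called. The call was lost without WT C1 (adjusted p = 0.0617). The labels do not say how reads that fall in both were assigned, so its values are uncertain.

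Type I collagen differed by column suffix as well as by genotype, with a single SE library in each genotype. The suffix difference was not particular to it. Fn1 stood at 339 and 935 in WT C1 and SE and at 262, 319 and 2222 in KO C1, C2 and SE. Sparc went the other way and was lowest in SE in both genotypes. Col1a1, chosen after its values were seen, was 5.55 in WT C1 and 56.1 in WT SE, and 882, 506 and 12333 in KO C1, C2 and SE. Its call was lost without WT C1 (adjusted p = 0.180) and without WT SE (adjusted p = 0.0758). Alpl had 4 reads in WT C1 and none in WT SE, too few to show a difference by suffix in the WT. In the KO its highest value, 113, was in SE.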
